A study of Mus musculus with 24 samples.

Results

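Potassium channel genes were followed across 4 populations of cells sorted from mouse embryonic stem cell cultures. The members were the entries of the deposited RPKM table (reads scaled by transcript length and by library size) whose symbol was Kcn followed by letters and a final number, which gave 85 of 22889 entries in 20 subfamilies. Of these, 71 encode pore-forming subunits and 14 encode accessory subunits. By channel class there were 29 voltage-gated members, 10 electrically silent members, 8 calcium- or sodium-activated members, 13 inward rectifiers, 11 two-pore domain members and the 14 accessory subunits. Kcnu1 (Slo3) was placed in the calcium- or sodium-activated class by family, not by an activating ion.

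Oculomotor-type cultures came from an Islet1-GFP line that also carried NesEPhox2a, that is Phox2a under the nestin enhancer, and received 100 ng/ml FGF8 together with SAG, which activates smoothened, at 250 nM over 5 days. Spinal-type cultures came from an Hb9-GFP line and received 100 nM retinoic acid and 500 nM SAG over the same 5 days. Both were dissociated on day 9 and sorted by flow cytometry into a GFP+ and a GFP- fraction, and each of the 4 groups held 6 samples. Each culture type was 1 engineered line, so line, reporter, Phox2a transgene and patterning agents change together between the cultures and cannot be told apart. The labels do not say that the 6 samples of a group came from separate cultures, so the p-values measure only the spread between these samples.

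Potassium channels let potassium leave or enter the cell along its electrochemical gradient and so set the resting potential, end the action potential and shape the interval between spikes. Voltage-gated channels open on depolarization, inward rectifiers pass current best near and below the potassium equilibrium potential, two-pore domain channels carry background leak, and calcium- and sodium-activated channels couple the current to internal ions. Silent and accessory subunits do not form working channels alone but change the traffic and gating of the pore-forming subunits they join. In motor neurons, leak and inward rectifier currents are known for controlling input resistance, and fast voltage-gated currents for controlling firing rate.

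The start-site regions of the 4 members with the largest called differences are shown, since their levels are what the comparisons turn on. They are from RefSeq on GRCm38.p6, run 5′ to 3′ on the gene's strand from 250 bases before to 50 bases after the annotated start, and have capitals where the letters GGGCGG, the core of a GC box, were found on either strand. Kcnj12 is at chr11:61065554-61065853, plus strand, and this RefSeq start lies 43240 bases inside the GENCODE gene. Kcnk10 is at chr12:98578164-98578463, minus strand, the more upstream of 2 windows that RefSeq gives for it. Kcnc1 is at chr7:46396218-46396517, plus strand. Kcnk1 is at chr8:125994852-125995151, plus strand.
Kcnj12: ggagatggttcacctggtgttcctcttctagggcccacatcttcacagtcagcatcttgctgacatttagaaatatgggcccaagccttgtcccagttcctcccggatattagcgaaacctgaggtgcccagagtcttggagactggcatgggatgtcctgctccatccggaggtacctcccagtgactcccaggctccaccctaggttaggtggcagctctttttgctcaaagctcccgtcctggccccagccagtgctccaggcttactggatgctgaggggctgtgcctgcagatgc
Kcnk10: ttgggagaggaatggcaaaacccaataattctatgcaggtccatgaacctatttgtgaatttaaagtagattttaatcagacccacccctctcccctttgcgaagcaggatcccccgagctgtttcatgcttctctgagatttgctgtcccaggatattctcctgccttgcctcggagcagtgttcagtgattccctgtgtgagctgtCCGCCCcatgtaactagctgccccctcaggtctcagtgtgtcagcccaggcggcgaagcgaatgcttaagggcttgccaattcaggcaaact
Kcnc1: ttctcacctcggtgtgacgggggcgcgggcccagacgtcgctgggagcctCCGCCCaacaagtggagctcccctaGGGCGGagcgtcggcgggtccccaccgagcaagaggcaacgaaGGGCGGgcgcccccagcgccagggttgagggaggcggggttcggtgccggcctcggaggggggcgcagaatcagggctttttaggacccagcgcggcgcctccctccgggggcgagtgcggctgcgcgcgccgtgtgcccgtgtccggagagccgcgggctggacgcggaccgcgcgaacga
Kcnk1: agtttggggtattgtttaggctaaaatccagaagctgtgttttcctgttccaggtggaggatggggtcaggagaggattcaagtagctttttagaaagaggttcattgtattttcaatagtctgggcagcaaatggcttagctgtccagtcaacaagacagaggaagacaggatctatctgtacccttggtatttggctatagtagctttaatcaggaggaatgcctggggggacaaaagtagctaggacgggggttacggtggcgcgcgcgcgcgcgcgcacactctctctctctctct

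Their base composition varied: GC content was 57.0% for Kcnj12, 51.0% for the Kcnk10 window shown, 74.7% for Kcnc1 and 49.0% for Kcnk1, and the second Kcnk10 window, at chr12:98575078-98575377 and not shown, had 64.3% GC, 18 CpG dinucleotides and no GGGCGG. The Kcnc1 window held 41 CpG dinucleotides against 4 in that of Kcnj12. RefSeq listed 83 such windows for 61 of the 85 members, and their median GC content was 59.7%, against 52.7% over all 32851 windows. GGGCGG was present in 51.8% of the members' windows and in 35.7% of all windows. CAGCTG, an E-box, was in 22.9% against 16.3%, and TATAAA in 4.82% (4 of 83 windows) against 13.6%. TTCAGCACC, part of the RE1 element, was in only 1 of the 83 member windows (1.20%), against 0.371% of all windows. TAATTA, a homeodomain core, was found in none of the 83 member windows and in 5.29% of all windows. Both strands were searched, and matches of TAATTA and TATAAA may share letters. These matches describe letters in a window and say nothing of binding.

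The files hold RPKM without counts. Low values fell on whole multiples of 1 read for 96.0% to 97.9% of entries under 10 reads, within 2%, which gave an estimated 748315 to 7608402 reads per sample. Replicates 1 to 4 were shallower (median 2824994) than replicates 5 and 6 (median 6961510). In a transcript of 3000 bases, 1 read was worth 0.0438 to 0.445 RPKM, so many low members rest on a few reads. SMART-seq2 libraries carry no molecular identifiers, so such limits cover counting error only. Labels were checked against motor neuron markers. Phox2a was higher in the oculomotor GFP+ than in the spinal GFP+ samples, with 25.7 ± 18 against 1.78 ± 3.38 RPKM (SD, n = 6), and Mnx1, which encodes HB9, was lower, with 2.52 ± 2.54 against 97.7 ± 44.0 RPKM. Only the oculomotor line carried the Phox2a transgene, and only the spinal cells were sorted on an Hb9 reporter. Both markers therefore check the labels and are no independent check of cell identity. Libraries that stood apart were spinal GFP- replicate 2, where 10 entries held 76.3% of all RPKM, spinal GFP- replicate 4, with 69.4 RPKM of Mnx1 against 0.19 to 4.72 in the other 5, and spinal GFP+ replicate 4, with a summed pan-neuronal level of 70.1 RPKM against 389 to 1474. In spinal replicate 4 the marker order of the fractions was thus inverted. The motor neuron sum was 69.2 RPKM in GFP+ against 100.5 in GFP- cells, and the pan-neuronal sum 70.1 against 86.5.

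Most potassium channel genes were low. A level above 1 RPKM was reached in at least 1 sample by 55 members and never by the other 30, and 5 members exceeded 10 RPKM anywhere. All 85 were above 0 in at least 1 sample, and Kcnk4 was above 0 only in spinal GFP+ replicate 3. By median, the GFP+ samples held more members above 1 RPKM. The median was 15.5 members in the oculomotor GFP+ group (9 to 26) and 6 in its GFP- group (1 to 7). In the spinal cultures it was 15.5 (5 to 23) in GFP+ and 8.5 (5 to 11) in GFP- samples. This did not hold in every spinal pair: replicate 2 had 8 in both fractions, and replicate 5 had 5 in GFP+ and 6 in GFP- cells. Over all entries of the table, the share above 1 RPKM was similar in the 4 groups, at 45.9%, 46.1%, 47.7% and 47.5% on average in the order oculomotor GFP+, oculomotor GFP-, spinal GFP+ and spinal GFP-. Above 0.1 RPKM the member medians were closer, at 41, 33.5, 39.5 and 43 in that order, with the spinal GFP- median above the spinal GFP+ one. These are bulk fractions, in which fewer cells of a type and less RNA per cell cannot be told apart.

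RPKM is scaled by length, so levels can be ranked between genes. In the oculomotor GFP+ group, Kcnj12 was the highest member and held 18.7% of the members' summed mean RPKM, followed by Kcnk10, Kcnc1, Kcnh2 and Kcnip1. In oculomotor GFP- samples, 2 two-pore members led, Kcnk1 with 22.6% and Kcnk5 with 16.7%. In spinal GFP+ samples the first was Kcnh2 with 16.2%, then Kcnn1 and Kcnk5, with Kcnd1 also among the highest. In spinal GFP- samples, Kcnk5 with 18.1% and Kcnh2 with 10.4% led. These ranks use means over the samples of a group and did not hold in every replicate. In replicates 5 and 6 Kcnh2 averaged 0.965, 0.779 and 0.380 RPKM in oculomotor GFP+, spinal GFP+ and spinal GFP- samples. In the same replicates of the spinal GFP+ group Kcnip1 averaged 2.86 RPKM. The rank of Kcnk5 in spinal GFP+ samples rested on 13.8 RPKM in replicate 4.

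**Figure D1:**
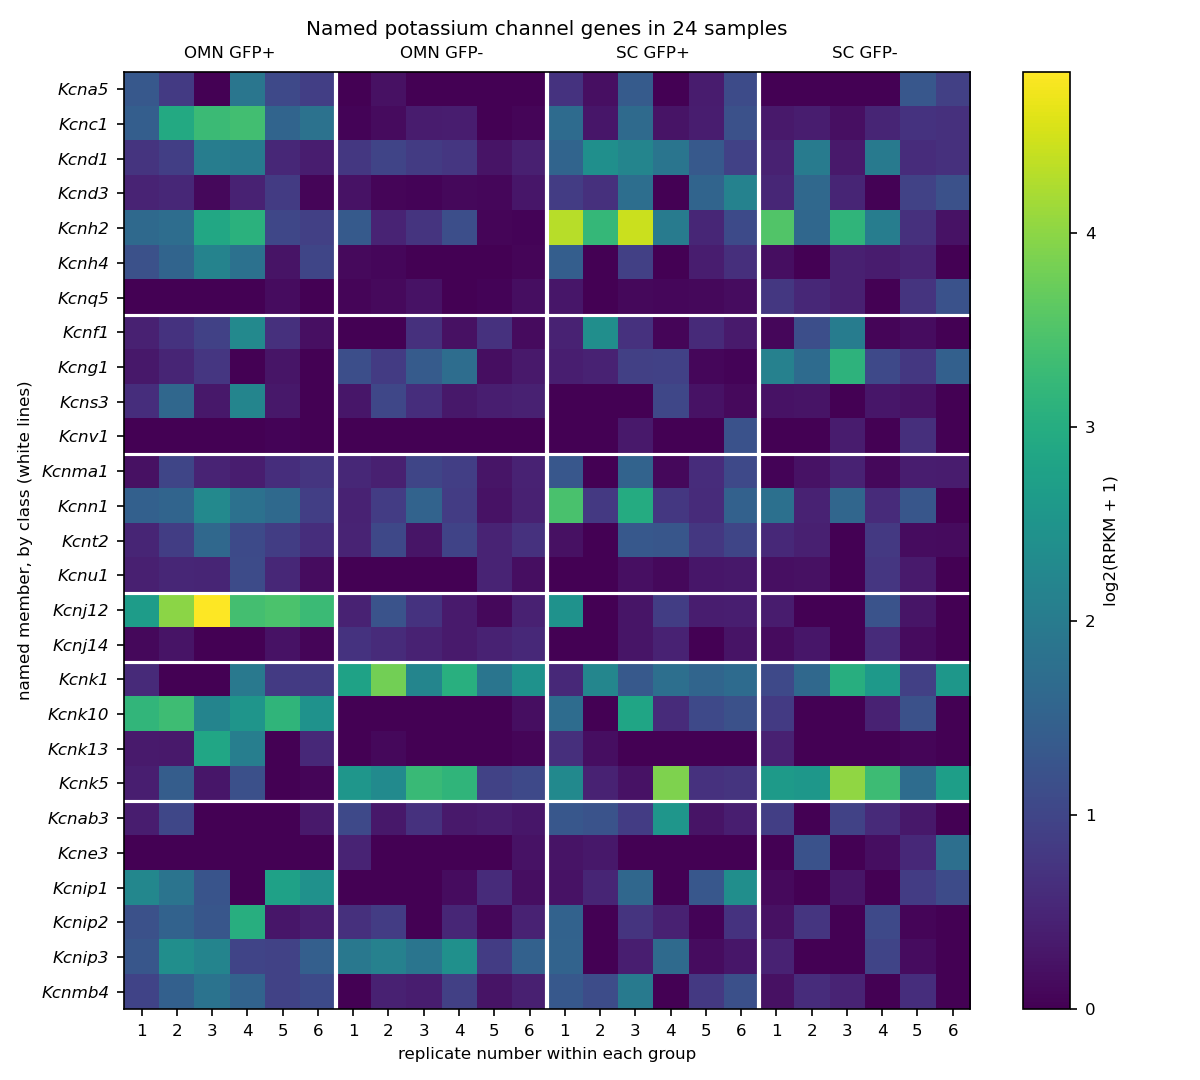
Level of 27 potassium channel genes (rows, grouped by channel class) in 24 samples (columns, grouped by sorted population), as log2(RPKM + 1). Kcnj12, Kcnk10 and Kcnc1 are brightest in the oculomotor GFP+ columns, Kcnk1 and Kcnk5 in the oculomotor GFP- and spinal GFP- columns, and Kcnh2 changes within each group between replicates.

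Summed by class, the contents of the populations differed in size and in make-up. Voltage-gated members summed to a median of 15.9 RPKM in oculomotor GFP+ samples (9.72 to 46.6), 3.91 in oculomotor GFP- samples (1.18 to 6.66), 18.3 in spinal GFP+ samples (9.60 to 55.4) and 13.2 in spinal GFP- samples (6.81 to 20.5). The 2 oculomotor groups did not overlap. Inward rectifiers summed to 10.6 RPKM (6.23 to 29.0) in oculomotor GFP+ samples, above every sample of the other 3 groups, whose medians were 1.69, 3.36 and 2.34. This was nearly all Kcnj12, which alone had a mean of 12.7 RPKM of the mean sum of 13.9 RPKM in oculomotor GFP+ samples. Two-pore members gave similar sums in all groups, with means of 12.0 ± 4.95, 11.6 ± 5.63, 9.84 ± 5.80 and 12.7 ± 6.79 RPKM (SD, n = 6). By mean, Kcnk10 led them in oculomotor GFP+ samples, Kcnk1 in oculomotor GFP- samples and Kcnk5 in both spinal groups. The lead of Kcnk5 in spinal GFP+ samples rested on 13.8 RPKM in replicate 4, a library that stood apart. In replicates 5 and 6 of that group Kcnk5 had 0.617 to 0.658 and Kcnk1 1.98 to 2.22 RPKM. Accessory members summed to 12.3 ± 2.27 RPKM in oculomotor GFP+ samples and to 5.46 ± 2.19, 7.44 ± 2.36 and 4.20 ± 2.09 RPKM in oculomotor GFP-, spinal GFP+ and spinal GFP- samples. Calcium- and sodium-activated members summed to 5.24 ± 1.92, 2.68 ± 0.807, 5.97 ± 4.19 and 2.83 ± 1.03 RPKM in the same order, and the silent members to medians of 1.59, 2.12, 2.09 and 3.17 RPKM. Sums are dominated by the few high members and were not tested.

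**Figure D2:**
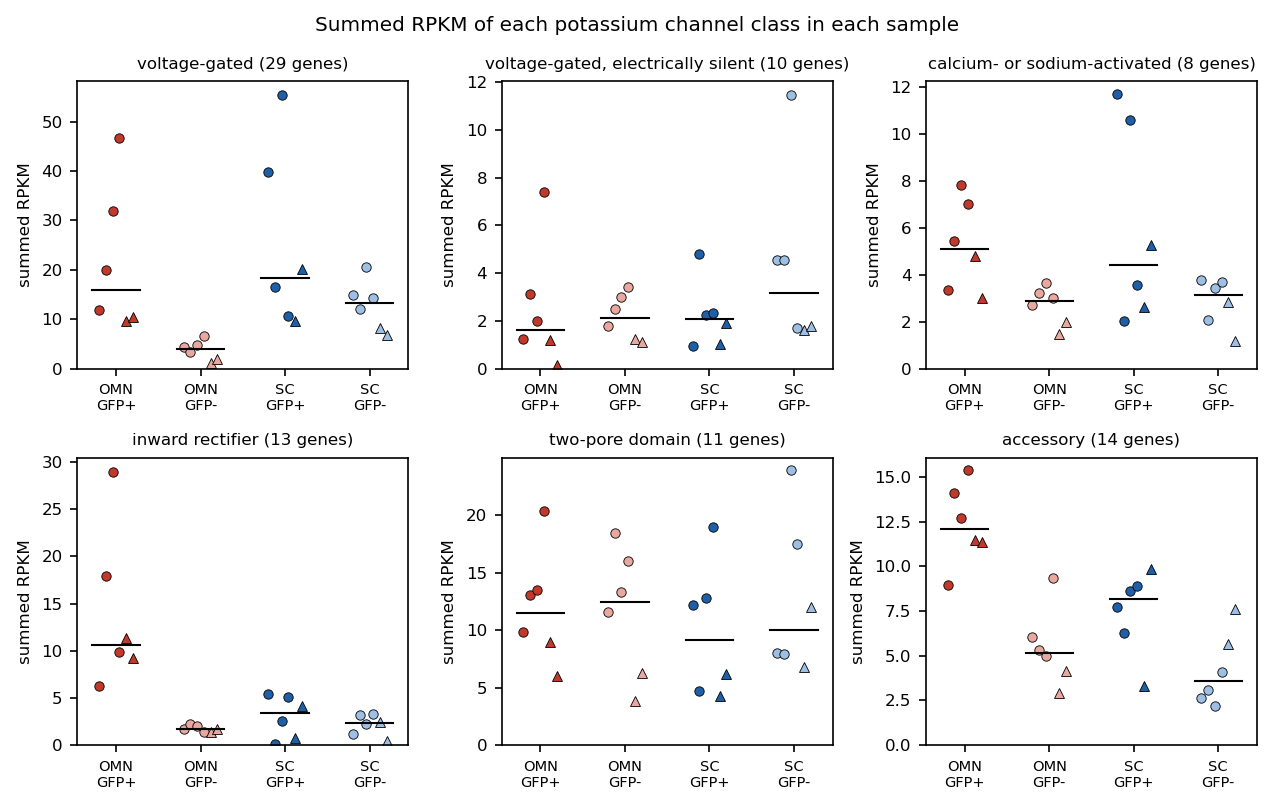
Summed RPKM of the members of each channel class in each of 24 samples (points) with the group median (line). The inward rectifier sums of the 6 oculomotor GFP+ samples, 6.23 to 29.0, lie above all other samples, while the two-pore sums overlap in all 4 groups. Kcnj12 alone made up a mean of 12.7 of the 13.9 RPKM of inward rectifiers in oculomotor GFP+ samples.

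The first comparison set the oculomotor GFP+ fraction against the GFP- fraction of the same cultures. Of 84 members tested, 8 were higher and 2 lower in GFP+ cells (limma on log2(RPKM + 1), Benjamini-Hochberg over 22179 genes, adjusted p under 0.05). These 10 are 11.9% of the members, and 6.15% of all tested genes passed the same test, 3.81% as higher and 2.34% as lower (845 and 519 genes). With median-of-ratios scaling the split over all genes was 884 and 841, and that of the members 8 and 3. Among the higher were voltage-gated Kcnc1, Kcnh4 and Kcna5, inward rectifier Kcnj12, two-pore Kcnk10 and accessory Kcnip1 and Kcnmb4, and the lower were two-pore Kcnk1 and inward rectifier Kcnj14. The groups did not overlap for 10 members, 9 with GFP+ above and 1 below, beside 6.52% of all tested genes, 4.04% above and 2.48% below. The median log2 change was 0.10 over the members and 0.00 over all genes.

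Over all tested genes 3.81% were higher and 2.34% lower. By class, 4 of 29 voltage-gated members were higher and none lower, and 19 had a positive change, with a median of 0.25 on the log2 scale. For accessory members it was 2 of 14 higher, with a median of 0.11. Of the 13 inward rectifiers 1 was higher and 1 lower, with a median of 0. The same held for 1 and 1 of the 10 two-pore members tested, with a median of 0.15. Neither the 10 silent members nor the 8 calcium- or sodium-activated members held a call, and their median changes were -0.01 and 0.23. Of the 10 silent members 4 had exceeded 1 RPKM anywhere, and of the 8 activated members 7 had.

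Kcnj12 encodes Kir2.2, a strong inward rectifier that holds cells near the potassium equilibrium potential (gene at chr11:61022564-61071131, plus strand). Its level was 5.33 RPKM at the lowest, 9.79 at the median and 27.4 at the highest in oculomotor GFP+ samples, and 0.0754, 0.364 and 1.36 in GFP- samples. All 6 GFP+ samples were above all GFP- samples, and the means differed 24.7-fold. The log2 change was 3.06 (SE 0.39, adjusted p = 2.06e-05, limma). In the spinal cultures the values were 0, 0.317 and 4.54 in GFP+ and 0, 0.103 and 1.37 in GFP- samples.

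Kcnk10 encodes TREK-2, a leak channel that responds to stretch and lipids (chr12:98429437-98578310, minus strand). Its oculomotor GFP+ values ran from 3.55 over 6.33 to 9.0 RPKM, and it was listed at 0 in 5 of 6 GFP- samples, the sixth having 0.127. The log2 change was 2.78 (SE 0.36, adjusted p = 2.23e-05), and the groups did not overlap. Spinal GFP+ samples spanned 0 to 6.16 around a median of 1.19, and spinal GFP- samples 0 to 1.29 around 0.186.

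Kcnc1 encodes Kv3.1, a fast channel of neurons that fire at high rates (chr7:46396497-46438704, plus strand). It had 1.73, 4.57 and 9.34 RPKM as the lowest, median and highest oculomotor GFP+ values and 0, 0.0751 and 0.313 in GFP- samples, with no overlap. The change was 2.23 on the log2 scale (SE 0.34, adjusted p = 0.000176). Spinal GFP+ samples had 0.189, 0.801 and 2.23, and spinal GFP- samples 0.141, 0.368 and 0.63.

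Among the other voltage-gated members, Kcnh4, an ether-a-go-go-like channel (chr11:100740376-100759942, minus strand), had 0.198, 1.62 and 3.46 RPKM in GFP+ and 0, 0.0204 and 0.0871 in GFP- oculomotor samples, a log2 change of 1.29 (SE 0.25, adjusted p = 0.00254) with no overlap. Kcna5, the Shaker-type Kv1.5 (chr6:126532551-126535412, minus strand), was low, at 0, 0.977 and 2.72 RPKM against 0, 0 and 0.164, and its groups overlapped. Its change of 0.96 (SE 0.28, adjusted p = 0.0429) was not stable: with 1 of the 24 samples left out in turn, the adjusted p reached 0.117, and the call was kept in 12 of 24 fits. The call of Kcna5 was lost without any 1 of the oculomotor GFP- samples, without oculomotor GFP+ replicate 1, 2, 4, 5 or 6, and without spinal GFP+ replicate 1.

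The 2 accessory calls were for partners of other channels. Kcnip1, a calcium-binding KChIP of the Kv4 channels (chr11:33629339-33993152, minus strand), had 0, 3.17 and 5.76 RPKM in GFP+ and 0, 0.0598 and 0.502 in GFP- oculomotor samples. The change was 1.61 (SE 0.41, adjusted p = 0.0185), with GFP+ higher in 5 of 6 pairs, and it was lost without oculomotor GFP+ replicate 5 (adjusted p = 0.0507). Kcnmb4, the neuronal beta subunit of BK channels (chr10:116417861-116473878, minus strand), had 0.942, 1.46 and 2.59 against 0, 0.327 and 0.892 RPKM, with no overlap, a change of 0.91 (SE 0.26, adjusted p = 0.0351), kept in 16 of 24 fits that each lacked 1 sample (adjusted p up to 0.0913) and lost without oculomotor GFP- replicate 1, 2, 3, 5 or 6 or GFP+ replicate 2, 3 or 4. The pore of the channel that Kcnmb4 joins, Kcnma1, had 0.513 ± 0.304 and 0.537 ± 0.317 RPKM (SD, n = 6) and a change of -0.02 (adjusted p = 1).

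The 2 lower members were Kcnk1 and Kcnj14. Kcnk1 encodes TWIK-1, a two-pore channel (chr8:125995170-126030685, plus strand). It had 0, 0.626 and 2.85 RPKM in GFP+ and 2.69, 5.20 and 13.0 in GFP- oculomotor samples, and was lower in GFP+ in 6 of 6 pairs although the ranges overlapped. The log2 change was -2.0 (SE 0.42, adjusted p = 0.0044), and the GFP- mean was 7.58-fold the GFP+ mean. Kcnj14, the inward rectifier Kir2.4 (chr7:45816460-45824782, minus strand), was low everywhere, with 0, 0.0663 and 0.2 in GFP+ and 0.273, 0.43 and 0.634 in GFP- samples and no overlap. Its change was -0.41 (SE 0.10, adjusted p = 0.0165), and it was not called with a pseudocount of 0.1 RPKM.

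**Figure D3:**
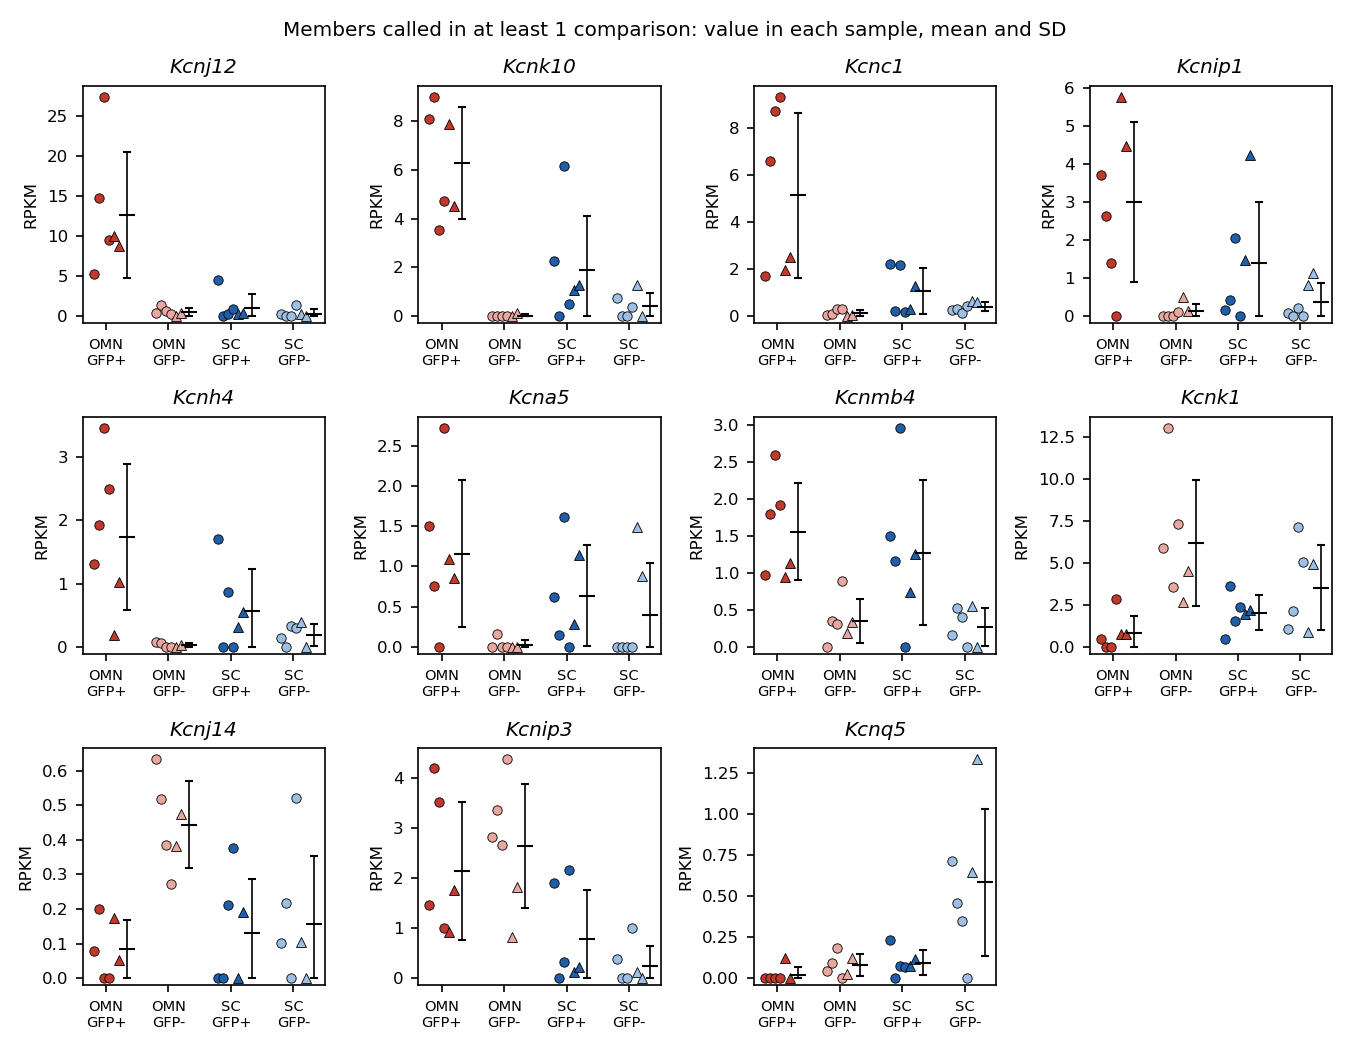
RPKM of 11 members called in a comparison in each of the 24 samples, with replicates 1 to 4 as circles and 5 and 6 as triangles, and the mean with SD (n = 6, cut at 0). Kcnj12 is high in the 6 oculomotor GFP+ samples (5.33 to 27.4) and Kcnk10 is at 0 in 5 of 6 oculomotor GFP- samples.

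Samples with the same number deviated together within each culture, so the same comparison was also fitted with the replicate number as a block. That fit called 14 members, or 16.7%, beside 16.4% of all tested genes. The 4 added were Kcnh2, the ether-a-go-go-related channel, which went from an adjusted p of 0.333 to 0.0108 at a log2 change of 1.25, Kcnk5, the leak channel TASK-2, from 0.0864 to 0.0277 at -1.66, Kcnk13, the leak channel THIK-1, from 0.0707 to 0.0388 at 1.00, and Kcnh1, from 0.0799 to 0.0444 at 0.34. Kcnh1 lies outside the rule for named genes and was chosen after its values were seen. Kcnh2 had 0.896, 2.22 and 7.44 RPKM in oculomotor GFP+ and 0.0333, 0.518 and 1.56 in GFP- samples. Kcnk5 ran the other way, with 0, 0.276 and 1.69 against 0.925, 4.39 and 8.72 RPKM.

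Cell type markers moved with this comparison. All 7 pan-neuronal markers and 7 of 10 motor neuron markers were higher in the GFP+ fraction, and their summed levels did not overlap (836 to 1433 against 18.6 to 64.5 RPKM, and 377 to 816 against 10.5 to 43.5). Of 4 pluripotency markers 3 were lower, Nanog, Zfp42 and Dppa5a, with sums of 0.315 to 253 against 666 to 9856 RPKM, and of 7 progenitor markers 2 were lower, Sox2 and Top2a. Of the markers in the further lists, Slc1a3 of the astrocyte list and Foxa2 of the endoderm list were lower and Mbp of the oligodendrocyte list was higher. No marker of these lists was at 0 in all 24 samples. Their part in the channel differences was not tested.

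In the spinal cultures, GFP+ against GFP-, none of the 84 members passed the test, and 1.23% of all tested genes did. At an unadjusted p under 0.05 there were 17 members (20.2%) beside 10.4% of all genes, and limma with sample weights called 2 members. The groups overlapped for every member, beside 0.469% of all tested genes that did not. The median log2 change was 0.06 over the members and 0.00 over all genes. Kcnmb4 had 0, 1.21 and 2.95 RPKM in GFP+ against 0, 0.282 and 0.555 in GFP- samples, a change of 0.74 (SE 0.26, adjusted p = 0.226). Kcnk10, at 0.82 (SE 0.36), had an adjusted p of 0.405.

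With the block, Kcng1 and Kcnq5 were lower in spinal GFP+ than GFP- cells, 2 members or 2.38% beside 2.93% of all genes. Kcng1, a silent subunit of Kv2 channels, had 0.0289, 0.349 and 0.909 RPKM in GFP+ and 0.723, 2.00 and 7.66 in GFP- samples, lower in 6 of 6 pairs, a change of -1.23 (SE 0.28, adjusted p = 0.0322; 0.0686 without the block). Kcnq5, an M-current subunit, reached at most 1.34 RPKM in any sample and had a change of -0.49 (adjusted p = 0.0364; 0.0505 without the block). Kcnk5, at 0.172, 0.638 and 13.8 RPKM against 2.28, 5.37 and 15.4, had a change of -1.44 (SE 0.56, adjusted p = 0.314). Its highest GFP+ value was in replicate 4, the library with low pan-neuronal markers. Without that library the fit called 4 members, Kcnk5 (-1.94, adjusted p = 0.0291), Kcng1 (-1.33, adjusted p = 0.0379), Kcnmb4 (0.95, adjusted p = 0.0244) and Kcnh8 (0.74, adjusted p = 0.0488), the last named after its values were seen. The share of all genes called in that fit is not given here, so these 4 calls stand without a background.

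Here too the markers moved: 4 of 7 pan-neuronal and 5 of 10 motor neuron markers were higher in spinal GFP+ cells, and Pdgfra of the oligodendrocyte list and Sox17 and Gata6 of the endoderm list were lower. The summed pan-neuronal level was 70.1 to 1474 RPKM in GFP+ and 52.7 to 211 in GFP- samples, an overlap not seen in the oculomotor cultures. No pluripotency marker passed, and their sums were 14.3 to 12385 and 74.4 to 5724 RPKM. Their part in the channel values was not tested.

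**Figure D4:**
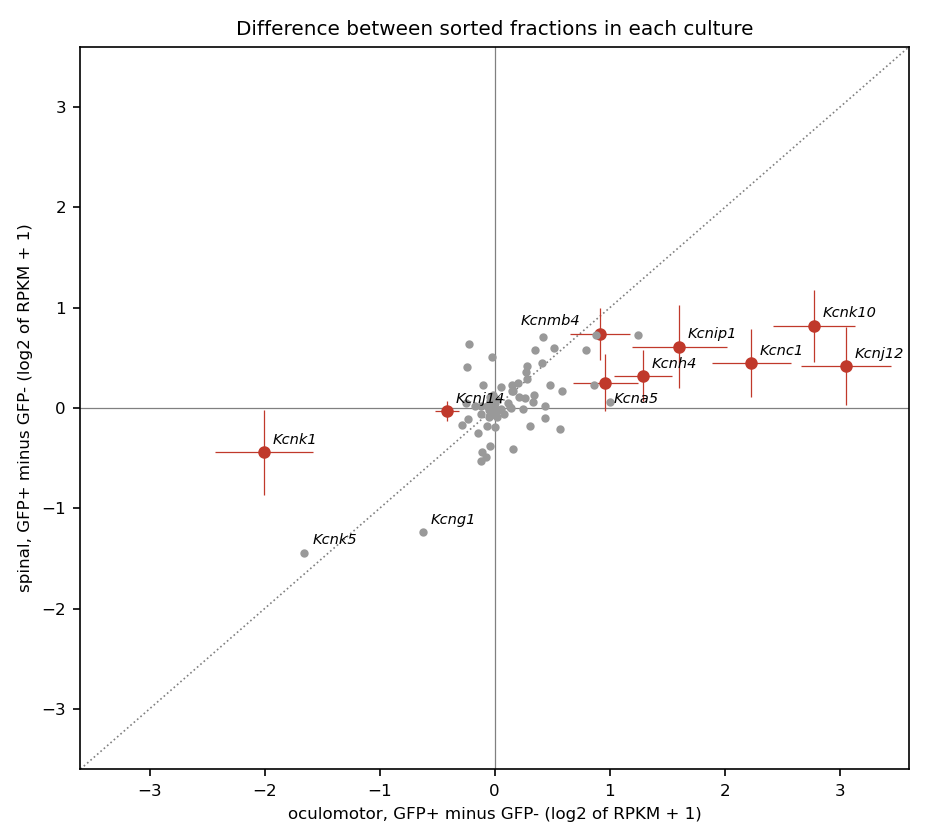
Log2 change from GFP- to GFP+ for tested members in the oculomotor (x axis) and the spinal cultures (y axis), from limma on log2(RPKM + 1), with members called in the oculomotor comparison in red with SE bars. Kcnj12 lies at 3.06 and 0.42 and Kcnk10 at 2.78 and 0.82, while Kcnmb4, at 0.91 and 0.74, lies nearer the diagonal.

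The difference between the 2 fraction steps was tested as an interaction, and 1 of 84 members, Kcnj12, passed, beside 0.32% of all genes, and 12 were at an unadjusted p under 0.05, beside 7.13%. Its step was larger in the oculomotor cultures by 2.63 on the log2 scale (SE 0.55, adjusted p = 0.0306). With the block the adjusted p was 0.00981, and Kcnj12 was again the 1 member called, beside 2.04% of all genes. The call was kept in 14 of 24 fits that each lacked 1 sample (adjusted p from 0.00254 to 0.0663). It was lost without oculomotor GFP- replicate 1, 4, 5 or 6, oculomotor GFP+ replicate 2, spinal GFP- replicate 1 or 5, or spinal GFP+ replicate 2, 5 or 6, and with a pseudocount of 0.1 RPKM. Kcnk10 (1.96, SE 0.51, adjusted p = 0.114) and Kcnc1 (1.78, SE 0.48, adjusted p = 0.139) missed the threshold. For Kcnmb4 the difference was 0.17 (SE 0.37, adjusted p = 0.954). So, past Kcnj12, a call in the oculomotor and none in the spinal comparison was not shown to be a difference between the cultures.

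The motor neuron fractions themselves were compared as oculomotor GFP+ against spinal GFP+ cells, in a fit of those 12 samples. This comparison shares its oculomotor GFP+ samples with the fraction comparison above. Of 73 members tested, 1 was called, Kcnj12, beside 0.603% of the 19240 genes, and 12 were at an unadjusted p under 0.05, beside 10.1%. It was 2.87 higher on the log2 scale in oculomotor GFP+ cells (SE 0.47, adjusted p = 0.0133), with means of 12.7 ± 7.85 against 1.04 ± 1.74 RPKM (SD, n = 6), a ratio of 12.2. The lowest oculomotor value, 5.33, was above the highest spinal value, 4.54, and no other member was without overlap, beside 1.43% of all genes. The call was kept with each of the 12 samples left out in turn and was lost with a replicate block across cultures (adjusted p = 0.0857), although the numbers do not pair samples across cultures. Within replicates 1 to 4 the change was 2.81 (adjusted p = 0.244) and within replicates 5 and 6 it was 2.98 (adjusted p = 0.093). Cell type markers also differed in level: the summed pluripotency markers were 0.315 to 253 RPKM in oculomotor and 14.3 to 12385 in spinal GFP+ samples, where replicates 4 and 5 had 5088 and 12385, and the pan-neuronal sums were 836 to 1433 against 70.1 to 1474. All 4 pluripotency markers had a negative change, with a median of -2.42, and none of them or of the 7 pan-neuronal markers passed. Their part in the difference was not tested. The median log2 change was -0.03 over the members and -0.04 over all genes. The other 12 members were above 0 in fewer than 2 of the 12 samples and could not be tested.

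Of the other high members, Kcnk10 had a difference of 1.57 (SE 0.46, adjusted p = 0.189) and Kcnc1 one of 1.49 (SE 0.47, adjusted p = 0.243) in that fit, and neither passed. Both passed in a fit of all 24 samples (adjusted p = 0.0206 and 0.0221), which called 3 members beside 1.54% of all genes. No member passed as lower in oculomotor GFP+ cells. Kcnh2 had 0.896, 2.22 and 7.44 RPKM in oculomotor and 0.428, 5.68 and 20.7 in spinal GFP+ samples, with a change of -0.71 (SE 0.71, adjusted p = 0.764). The Kv4 pore gene Kcnd1 had 1.39 ± 1.28 against 2.5 ± 1.29 RPKM (-0.63, adjusted p = 0.633), and Kcnd3 0.356 ± 0.271 against 1.51 ± 1.27 (-0.74, adjusted p = 0.477). The Kv4 partner Kcnip1 had 2.99 ± 2.10 against 1.39 ± 1.61 RPKM (0.75, adjusted p = 0.667), and Kcnip2 2.05 ± 2.57 against 0.593 ± 0.677 (0.72, adjusted p = 0.62).

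The GFP- fractions were compared in the fit of all 24 samples, and 2 of 84 members passed, beside 0.96% of all genes. In a limma fit of only those 12 samples, the kind used for the GFP+ fractions, 0 of 81 members passed, beside 76 of 20589 genes. At an unadjusted p under 0.05 there were 12 of 81 members, beside 2258 of 20589 genes. Kcnip3, also known as calsenilin or DREAM (chr2:127456498-127522094, minus strand), was higher in oculomotor GFP- cells, with 0.819, 2.74 and 4.39 RPKM against 0, 0.06 and 0.995, a change of 1.51 (SE 0.35, adjusted p = 0.0333). Kcnq5 (chr1:21398403-21961942, minus strand) was lower, with 0, 0.0681 and 0.182 against 0, 0.553 and 1.34 RPKM, a change of -0.51 (SE 0.12, adjusted p = 0.0475). For both, the groups overlapped. Leaving out 1 sample kept the call of Kcnip3 in 14 and that of Kcnq5 in 3 of 24 fits, with adjusted p up to 0.0874 and 0.107. Kcnip3 was lost without oculomotor GFP- replicate 1, 2, 3, 4 or 6 or spinal GFP- replicate 1, 2, 3, 5 or 6, and Kcnq5 without any sample other than spinal GFP- replicates 3 and 4 and spinal GFP+ replicate 4. The groups did not overlap for 1 member, which did not pass the test, beside 1.27% of all genes. The median log2 change was -0.05 over the members and -0.04 over all genes. Of the markers, Pdgfra, Sox17 and Gata6 were lower in the oculomotor GFP- samples, and the summed endoderm markers were 13.6 to 42.3 against 4.44 to 81.0 RPKM. No pluripotency or pan-neuronal marker passed, but all 4 pluripotency markers had a positive change, with a median of 2.48 and sums of 6398 against 231 RPKM in the group medians, and 6 of 7 pan-neuronal markers had a negative one, with a median of -1.55. Their part was not tested.

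Some members stood at a steady or a variable level without passing a comparison in the fits without a block. The SK channel Kcnn1 had means of 2.17 ± 0.979, 0.739 ± 0.626, 3.41 ± 3.96 and 1.14 ± 0.986 RPKM (SD, n = 6) in oculomotor GFP+, oculomotor GFP-, spinal GFP+ and spinal GFP- samples. In the same order the sodium-activated Kcnt2 had 0.974, 0.604, 0.806 and 0.299 RPKM, and Kcnu1, a relative of BK known from sperm, 0.485, 0.0863, 0.115 and 0.21. Among silent subunits, Kcnf1 had 1.08, 0.241, 1.00 and 0.752, Kcns3 1.11, 0.454, 0.218 and 0.127, and Kcnv1 0.0058, 0, 0.265 and 0.144 RPKM. The accessory subunits Kcnab3 and Kcne3 had 0.266, 0.452, 1.5 and 0.421 and 0, 0.0947, 0.0737 and 0.719 RPKM. Kcnk13 was uneven within its highest group, with 0, 0.371 and 6.28 RPKM in oculomotor GFP+ samples. The 54 members not named by the rule had group means of at most 1.31 RPKM, and 25 of them exceeded 1 RPKM in some sample.

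Part of the spread within groups followed the replicate numbers. Replicates 5 and 6, which were deeper, were compared with replicates 1 to 4 over the 4 groups, a comparison chosen after seeing the data. Of 84 members 6 were lower and 2 higher in replicates 5 and 6, beside 25.4% of all tested genes, 18% as lower and 7.37% as higher. Kcnh2 changed most, by -1.77 on the log2 scale (SE 0.33, adjusted p = 0.000364). Its values in replicates 1 to 4 against 5 and 6 were 2.13 to 7.44 against 0.896 to 1.03 RPKM in oculomotor GFP+ samples, and 3.01 to 20.7 against 0.428 to 1.13 in spinal GFP+ samples. In the GFP- samples they were 0.387 to 1.56 against 0.0333 to 0.0428 and 2.07 to 10.4 against 0.175 to 0.585, so the sets did not overlap in any group. Kcnk5 (-1.14, adjusted p = 0.0198), Kcnd1 (-0.72, adjusted p = 0.0236) and Kcng1 (-0.69, adjusted p = 0.0150) were lower as well. Kcnip1 was higher in replicates 5 and 6 (0.94, SE 0.24, adjusted p = 0.00582), and so was its relative Kcnip4 (0.45, adjusted p = 0.0424), named after its values were seen. The all-gene median of this comparison was -0.10. The balance depended on scaling: over all genes it was 3994 lower and 1635 higher, but 2433 lower and 2903 higher with median-of-ratios scaling and 2223 and 2741 with quantile normalization. The members were then 4 lower and 3 higher, and 3 and 3. Kcnh2, Kcnip1 and Kcnip4 were called under both scalings, Kcng1 only under the first, and Kcnk5 and Kcnd1 under neither. The study's methods name a pair of sequencing instruments with different read lengths, but the sources used here do not say which samples ran on which, and the parts of depth and instrument were not tested.

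**Figure D5:**
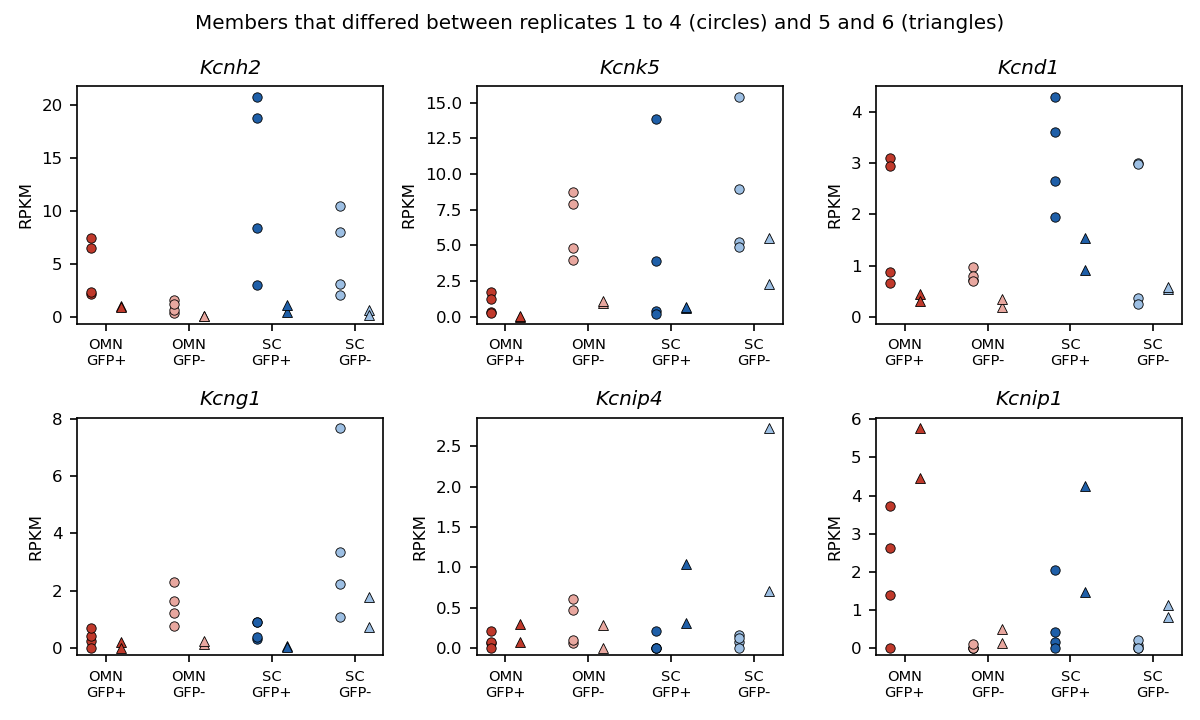
RPKM of 6 members that differed between replicates 1 to 4 and replicates 5 and 6, by group and sample. Kcnh2 is lower in replicates 5 and 6 of all 4 groups, and Kcnip1 is higher there, as in the oculomotor GFP+ samples with 0 to 3.72 against 4.46 to 5.76 RPKM.

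Within each set the oculomotor fraction step of the leading members kept its direction. These members were picked from a fit that held both sets, so the shared direction is no independent check. For Kcnj12 it was 3.03 in replicates 1 to 4 and 3.11 in replicates 5 and 6 (adjusted p = 0.00801 and 0.0045), and for Kcnk10 2.80 and 2.72. For Kcnc1 it was 2.52 and 1.65 (limma, adjusted p = 0.00606 and 0.0362). For Kcnh4 it was 1.63 and 0.61 (adjusted p = 0.00816 and 0.268), for Kcnip1 1.30 and 2.22 (adjusted p = 0.112 and 0.0428), and for Kcnk1 -2.33 and -1.35 (adjusted p = 0.0396 and 0.237). The steps of Kcna5 (0.95 and 0.98), Kcnmb4 (1.02 and 0.69) and Kcnj14 (-0.44 and -0.36) passed in neither set (adjusted p from 0.117 to 0.215).

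Genes that work with these channels were examined from lists of 3 other Kcn-named genes, 22 accessory and anchoring proteins (21 in the table), 11 potassium pumps and transporters and 4 Hcn channels. In the oculomotor fraction comparison 1, 3, 1 and 2 of them were higher in GFP+ cells and none lower, beside 3.81% of all tested genes higher and 2.34% lower. These were Kcne1l, a Kcne-like subunit (2.78 ± 2.66 against 0.0744 ± 0.182 RPKM, log2 change 1.49, adjusted p = 0.0102), Amigo1, a Kv2 partner (1.56, adjusted p = 0.00341), Ank3, the ankyrin of the axon initial segment (1.79, adjusted p = 0.00349), and Cntn2, an axonal adhesion protein that gathers Kv1 channels (25.0 ± 15.6 against 0.0920 ± 0.0863 RPKM, 4.35, adjusted p = 7.88e-05). The others were Slc12a5, the potassium-chloride cotransporter KCC2 (1.32, adjusted p = 0.0151), and the pacemaker channels Hcn3 (1.40, adjusted p = 0.0355) and Hcn4 (4.68 ± 2.87 against 0.260 ± 0.184 RPKM, 2.06, adjusted p = 0.0012). Lrrc38, a BK gamma subunit, was lower in spinal GFP+ than spinal GFP- cells (0.120 ± 0.188 against 4.44 ± 3.27 RPKM, -1.98, adjusted p = 0.00461) and in oculomotor GFP- than spinal GFP- cells (-1.73, adjusted p = 0.0171). None of these genes passed between the GFP+ fractions or in the interaction. The highest of the lists were calmodulin Calm2, with a mean of 2687 RPKM in oculomotor GFP+ samples, the sodium pump subunit Atp1b3 with 39.8 RPKM, and Hcn4. Of the other Kcn-named genes, Kcne1l was the highest in those samples, and Kcnq1ot1, with 2.18 RPKM there, was the highest in the other 3 groups, with 1.38, 2.44 and 2.63 RPKM. Kcnq1ot1 is an antisense transcript within Kcnq1, and libraries of this kind do not mark strand, so its reads and those of Kcnq1 cannot be told apart where they overlap.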

How the data were processed

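RNA from 24 sorted samples, 6 in each of 4 groups, had been sequenced as SMART-seq2 poly(A) libraries. Per the labels and the study's methods, the authors aligned reads with HISAT2 2.0.3 to mm10 and deposited RPKM values made with rpkmforgenes; the gene annotation is not given in the sources used here. RPKM divides by library total and length, so a few dominant genes lower all others. The submitters' processing notes also list DESeq2 1.12.4; no counts were used here.

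Values were tested as log2(RPKM + 1) with limma 3.58.1 (trend, R 4.3.3), two-sided, keeping genes above 0 in at least 2 fitted samples, with Benjamini-Hochberg adjustment over all genes and a threshold of 0.05. Fold changes on this scale understate those of low genes. The oculomotor against spinal GFP+ comparison used its 12 samples, and the others all 24. The method was tested on simulated data. Tables were handled in Python 3.11.15 with pandas 2.3.3. Members were named if called, among the 10 highest of a group, highest of their subfamily, or among the 3 largest changes in a direction without overlap of the groups. Some members and markers that met these rules are counted but not reported here. The members and lists were chosen with earlier results of these data known.

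Same-numbered GFP+ and GFP- samples deviated together within cultures (correlations over 11952 genes, 0.379 to 0.728 in oculomotor and 0.421 to 0.661 in spinal cultures, own number best in 6 and 5 of 6); across cultures not every pair did (-0.175 to 0.707 between the GFP+ fractions). Alternatives were another pseudocount, filter, scaling and weights, blocks, replicate sets and left-out samples. Gene positions are from GENCODE M21 on mm10. No pair of samples was identical (highest correlation 0.986).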

Additional observations from a re-analysis of the deposited data

Results flagged for a closer look

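Of 108 sets of 6 values (27 named members in 4 groups, on the log2(RPKM + 1) scale), 15 held a sample whose gap to the nearest other exceeded Dixon's 95% limit, as a share of the group's range. The usual chance rate of about 1 in 20 does not apply here, since many values are at 0. A set with 1 value above 0 is always flagged, as were Kcna5 and Kcnk10 in oculomotor GFP- and Kcnq5 and Kcnv1 in oculomotor GFP+ samples. A set at 0 throughout, such as Kcnv1 in oculomotor GFP- samples, has no range and cannot be flagged. Every flagged sample was the highest of its group. In oculomotor GFP+ samples these were Kcnab3 in replicate 2 with 1.04 RPKM, Kcnf1 in replicate 4 with 3.84 RPKM, and Kcnq5 and Kcnv1 in replicate 5 with 0.122 and 0.0348 RPKM. In oculomotor GFP- samples they were Kcna5 in replicate 2 with 0.164, Kcnip1 and Kcnu1 in replicate 5 with 0.502 and 0.388, and Kcnk10 in replicate 6 with 0.127 RPKM. In spinal GFP+ samples they were Kcnj12 and Kcnk13 in replicate 1 with 4.54 and 0.573, Kcnf1 in replicate 2 with 4.22, Kcns3 in replicate 4 with 1.05, and Kcnv1 in replicate 6 with 1.33 RPKM. In spinal GFP- samples they were Kcnk13 in replicate 1 with 0.352 and Kcnj12 in replicate 4 with 1.37 RPKM.

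The GFP+ against GFP- step of Kcnj12 differed between the oculomotor and spinal cultures by 2.63 on the log2 scale (limma interaction, adjusted p = 0.0306).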

How the results depend on the processing

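Most values rest on few reads: 3 reads in a 3000-base transcript correspond to 0.131 to 1.34 RPKM, so members under about 1 RPKM are poorly resolved in the shallowest samples. No direction of a named call reversed under any alternative. Of the named members' log2 changes, 175 kept their side of the threshold and 27 lost their call under other settings, and 279 kept and 69 lost it with 1 sample left out. Causes were not tested.

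Counts of called members changed as follows, given without the share of all genes under each setting. Sample weights raised the calls over all genes as well. They went from 116 to 260 of 19240 genes between the GFP+ fractions and from 213 to 650 of 22179 between the GFP- fractions. For the replicate sets they went from 25.4% to 37.3% of all genes. Between the GFP+ fractions (1 call), sample weights gave 2, the fit of all 24 samples 3, and a replicate block across cultures, replicates 1 to 4 and replicates 5 and 6 gave 0 each. Between the GFP- fractions (2), a pseudocount of 0.1, a filter at 1 RPKM and median-of-ratios scaling gave 1 each, weights and leaving out spinal GFP- replicates 2 and 4 or replicate 4 of both spinal fractions gave 3 each, and replicates 1 to 4, replicates 5 and 6 and a fit of only those 12 samples gave 0. For the oculomotor fractions (10), weights gave 18 and each replicate set 5. For the spinal fractions (0), the filter, median-of-ratios and quantile scaling gave 1, weights 2, the block across cultures 2, a replicate-set term 2, and the pairing block within cultures 2. Without both spinal GFP- replicates 2 and 4 there was 1 call, and without replicate 4 of both spinal fractions 2, settings chosen after seeing the data. For the interaction (1), a pseudocount of 0.1 and replicates 1 to 4 gave 0, and quantile scaling, weights and leaving out spinal GFP- replicates 2 and 4 gave 2; no fit on fewer groups exists for it. For the replicate sets (8), weights gave 15, median-of-ratios scaling 7 and quantile scaling 6. The pairing block within cultures changed no other count by over 1.5 times.

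With 1 sample left out, the counts ran from 1 to 2 between GFP+ fractions (2 without spinal GFP+ replicate 3), 0 to 3 between GFP- fractions, 7 to 12 for the oculomotor and 0 to 4 for the spinal fractions (4 without spinal GFP+ replicate 4, 2 without spinal GFP- replicate 4 or 5, and 1 without spinal GFP- replicate 2 or 3), 0 to 2 for the interaction (2 without spinal GFP+ replicate 3), and 7 to 11 for the replicate sets. Members above 1 RPKM ranged over medians of 11 to 20 in oculomotor GFP+, 6 in oculomotor GFP-, 11 to 20 in spinal GFP+ and 8 to 9 in spinal GFP- samples; above 0.1 RPKM the medians were 41, 33.5, 39.5 and 43.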
